A study of Homo sapiens with 6 samples.

Results

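The genes described here make up the DNA replication and S-phase machinery, 46 genes that load, start, run and protect replication forks and rebuild chromatin behind them. They were chosen as a list of symbols, and each symbol was looked up by its Ensembl identifier in gencode release 44. All 46 were found among the 60676 genes listed, of which 60357 have an entry in that release. HT29 cells, a human colorectal adenocarcinoma line of wild-type genotype, spent 48 h in control medium (untreated), in histidine-free medium or in tryptophan-free medium. There are 2 RNA-seq libraries for each condition, and whether their samples came from separate cultures is not given in the sources used here, so the p-values measure only the spread between these samples, which may be technical. The histidine-free medium had an RPMI base and the tryptophan-free medium a DMEM F-12 base, both with dialyzed serum, whereas the base of the control medium for RNA-seq is not given in the sources used here. The removal of the amino acid and the change of base medium therefore cannot be told apart.

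In G1 phase the origin recognition complex (ORC), CDC6 and CDT1 load the MCM2-7 helicase onto DNA, a step called licensing. At the start of S phase the loaded helicase joins CDC45 and the GINS complex to form the CMG helicase, which unwinds DNA for the polymerases while the PCNA clamp holds them in place. Transcription of many of these genes peaks at the G1/S boundary under E2F transcription factors, so their mRNA is commonly read as a sign of cycling cells. In bulk RNA, fewer cells in S phase and less mRNA per cell cannot be told apart.

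Promoter sequence was looked up because E2F factors bind near the start sites of such genes. RefSeq promoter windows of GRCh38.p14, running from 250 bases before to 50 bases after a start site, were at hand for 39 members in 51 windows. No window was matched for DSCC1, GINS4, MCM4, MCM5, POLD3, RPA2 and RPA3. Both strands were searched for the E2F words TTTCCCGC, TTTGGCGC, TTTCGCGC and TTTGCCGC. At least 1 of them was in a window of 23 of the 39 genes (59.0%), and in windows of 3.99% of the 27305 genes of the table. Per window the share was 47.1% of 51 for the members and 3.31% of all 35116 windows. TTTCCCGC was in windows of 12 members, TTTGGCGC of 9, TTTCGCGC of 7 and TTTGCCGC of 0, and these words can overlap each other. CCAAT, the word bound by NF-Y, was in windows of 22 members (56.4%, against 39.7% of all genes), the Sp1 word GGGCGG of 31 (79.5%, against 48.3%) and TTTGAA, the core of the cell cycle homology region found at many mitotic promoters, of 1 (2.56%, against 18.2%). The 4 windows below are given with their first 270 bases, up to 20 bases after the start site, 5′ to 3′ on the gene's strand, with each E2F word in capitals. MCM2 (chr3:127598161-127598430, plus strand) carries the word TTTCGCGC on both strands, overlapping, with the first base of the plus-strand match 3 bases into the transcript. MCM6 (chr2:135876424-135876693, minus strand) has a pair of places where TTTGGCGC overlaps TTTCGCGC of the other strand, starting 152 and 90 bases before the start. CLSPN (chr1:35769959-35770228, minus strand), whose level differed most between the depletions, has TTTCCCGC on the opposite strand. ORC6 (chr16:46689409-46689678, plus strand), which did not pass the test after histidine depletion, has none of these 4 words in its window, which says nothing about E2F binding there.
MCM2: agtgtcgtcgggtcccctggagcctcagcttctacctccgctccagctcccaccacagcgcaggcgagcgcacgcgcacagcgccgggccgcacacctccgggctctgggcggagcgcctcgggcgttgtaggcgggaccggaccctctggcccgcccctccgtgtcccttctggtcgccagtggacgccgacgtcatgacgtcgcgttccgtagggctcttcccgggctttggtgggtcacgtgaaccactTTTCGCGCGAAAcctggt
MCM6: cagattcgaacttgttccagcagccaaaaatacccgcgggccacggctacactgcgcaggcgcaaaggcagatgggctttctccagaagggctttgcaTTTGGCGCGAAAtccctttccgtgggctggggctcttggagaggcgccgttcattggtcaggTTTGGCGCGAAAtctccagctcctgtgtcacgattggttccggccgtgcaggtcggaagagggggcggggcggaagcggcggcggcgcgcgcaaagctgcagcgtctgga
CLSPN: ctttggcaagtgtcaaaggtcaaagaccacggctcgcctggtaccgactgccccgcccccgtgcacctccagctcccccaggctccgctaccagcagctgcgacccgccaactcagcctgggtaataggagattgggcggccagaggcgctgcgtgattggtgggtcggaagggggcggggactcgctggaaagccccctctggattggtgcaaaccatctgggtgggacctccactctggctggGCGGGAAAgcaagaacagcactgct
ORC6: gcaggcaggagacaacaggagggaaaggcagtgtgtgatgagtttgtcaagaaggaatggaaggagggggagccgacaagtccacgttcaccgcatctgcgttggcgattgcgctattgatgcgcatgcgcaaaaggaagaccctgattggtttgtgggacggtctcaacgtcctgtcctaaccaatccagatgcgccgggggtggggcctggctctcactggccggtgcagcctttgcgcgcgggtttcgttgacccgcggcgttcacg

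A match is a description of the letters and not a binding site. The 23 members with an E2F word had median changes (log2, limma) of -1.53 without histidine and -2.91 without tryptophan. For the 16 members without one the medians were -1.16 and -2.56. No test was made of this split, and its ranges overlapped, since CDC45, the member that fell most after tryptophan depletion, has no such word in any of its windows.

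The libraries held 46390819 to 64388876 reads, and no member fell below 42 reads in any library. Replicates differed by more than counting noise, with a chi-square per degree of freedom of 8.77, 4.03 and 1.85 in untreated, histidine-depleted and tryptophan-depleted cells. Over the members, replicates differed by a median of 2.85%, 6.94% and 7.39% in these groups, with the widest gaps for RPA3 among untreated (16.9%), CDCA7 among histidine-depleted (25.2%) and GINS4 among tryptophan-depleted libraries (34.3%). Of 10 colon epithelial markers, 10 had a mean above 10 scaled counts in untreated cells and 9 in each depletion. CDX1 was the exception in both, at 0 reads after histidine depletion. The summed level of these markers was 429078 to 455459 in untreated, 525840 to 554270 in histidine-depleted and 599320 to 602643 in tryptophan-depleted libraries, a sum carried largely by KRT8 and KRT18. Single markers moved in both directions, with 4 higher and 6 lower after histidine depletion, against 39.1% and 38.2% of all genes tested, and 5 higher and 2 lower after tryptophan depletion, against 36.1% and 34.8% of all genes (limma). After histidine depletion KRT20 stood at 331% of the untreated level, KRT8 at 170% and CDH1 at 139%, while CDX2 was left at 38.2% and LGALS4 at 33.6%. After tryptophan depletion KRT20 stood at 525%, CDH17 at 178% and CDH1 at 164%, while CDX1 was left at 19.8% and CDX2 at 85.1%. Of 11 leukocyte, fibroblast and endothelial markers, 4, 3 and 3 were above 10. Their sums were 247.0 to 255.6, 134.6 to 155.7 and 464.2 to 468.5, and 3, 2 and 3 of them were at 0 reads, among them COL1A2 in all 6 libraries. The part of these differences in the results below was not tested.

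Levels are given as scaled counts, reads divided by a size factor computed over all 6 libraries. Fold changes against untreated cells come from limma on log2(normalized count + 1) within the authors' table of that depletion, over 18288 genes for histidine and 17960 for tryptophan. The direct comparison of the depletions used limma on the scaled counts of all 6 libraries, over 18264 genes. A gene was called at an adjusted p (Benjamini-Hochberg over all genes tested) under 0.05. The comparisons are separate fits, and their adjusted p-values cannot be ranked against each other as strength of evidence. TIMELESS, a related gene, changed by -2.03 (standard error 0.0549) without histidine and -2.12 (standard error 0.0504) without tryptophan. Its limma adjusted p was nevertheless 3.7e-20 in the former fit and 3.32e-78 in the latter. Some members share exonic bases with a neighbour, which matters where reads were not assigned by strand or where both genes lie on the same strand. Of the 9 members that share over 5% of their exonic bases in this way, MCM2, GINS4, PRIM1 and TIPIN are described below, and the others are POLA2 (16.8%) and POLD1 (8.63%) on the same strand, and GINS3 (10.9%), RFC5 (10.6%) and MCM7 (7.90%) on the opposite strand. Pseudogenes are annotated for RPA2 (3), RPA3 (2) and, with 1 each, FEN1, ORC1, PRIM2, RFC3, RFC5 and TIPIN, so their counts may be incomplete.

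Nearly the whole machinery fell when histidine was removed. Of the 46 members, 45 were lower than in untreated cells and 0 were higher, where 38.2% of all genes tested were lower and 39.1% higher. The fall was at least 1 on the log2 scale for 29 members (16.1% of all genes) and at least 2 for 6 members (3.73%), namely CDCA7, ORC1, POLE2, EXO1, DSCC1 and RFC3. The median log2 fold change of the members was -1.22, against 0.010 for all genes. It ranged from -3.79 for CDCA7 to -0.06 for ORC6, the member that did not pass the test (limma adjusted p = 0.394). The mean level left was between 7.21% and 95.6% of the untreated level, with a median of 42.6%.

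After tryptophan depletion all 46 members fell and 0 rose, where 34.8% of all genes were lower and 36.1% higher. The fall was at least 1 for 41 members (10.4% of all genes) and at least 2 for 33 (3.09%). The median was -2.76, against 0.013 for all genes, in a range from -4.56 for CDC45 to -0.70 for SLBP. The level left had a median of 14.8% of the untreated level, from 4.23% to 61.8%. Both depletions were compared with the same untreated libraries. The members were chosen with earlier results of these data known, so their counts are a description of the set and not independent evidence of its direction.

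The depletions also differed from each other. Compared directly, 44 members were higher after histidine than after tryptophan depletion (38.7% of all genes tested) and 1, CDCA7, was lower (38.0%). The difference was at least 1 on the log2 scale for 27 members (16.0%) and at least 2 for 10 (4.38%). Its median was 1.36, against 0.011 for all genes. For 44 of the 46 members, all but CDCA7 and POLD3, every untreated library lay above every histidine-depleted one, and every histidine-depleted library above every tryptophan-depleted one, an order seen in 8.01% of the 18264 genes tested. The members together took 0.328% and 0.315% of the reads of the untreated libraries, 0.124% and 0.130% of those of the histidine-depleted and 0.0576% and 0.0566% of those of the tryptophan-depleted libraries.

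**Figure D1:**
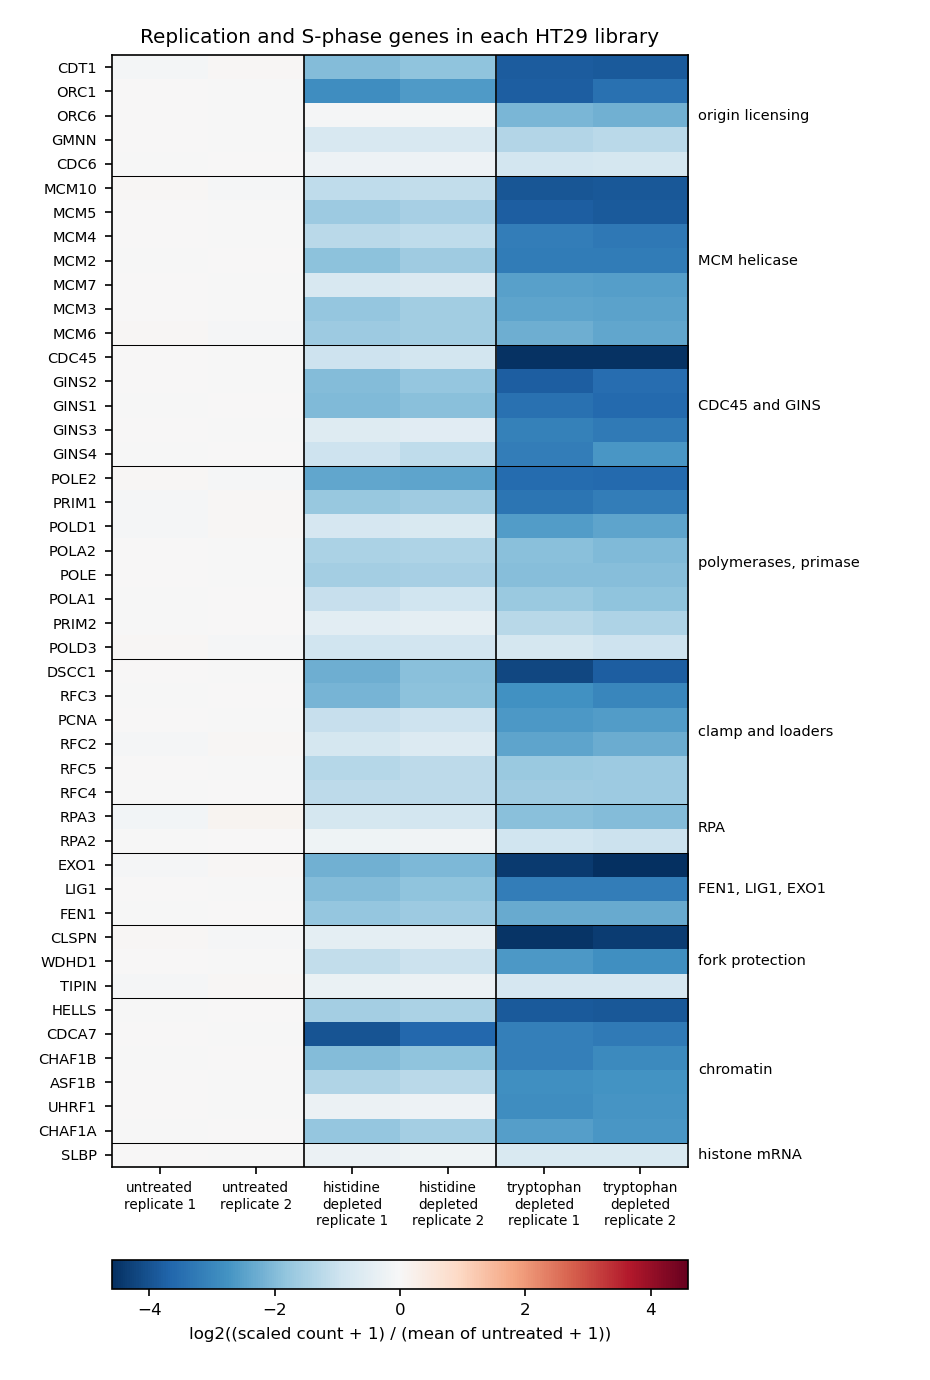
Level of each of the 46 members (rows, grouped by role) in each of the 6 libraries (columns), as log2 of the scaled count plus 1 over the mean of the untreated libraries plus 1, with blue for lower and red for higher. Each tryptophan-depleted column is darker than the histidine-depleted ones for most rows, with CDCA7 darker after histidine depletion, POLD3 alike in both and ORC6 nearly white after histidine depletion.

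**Figure D2:**
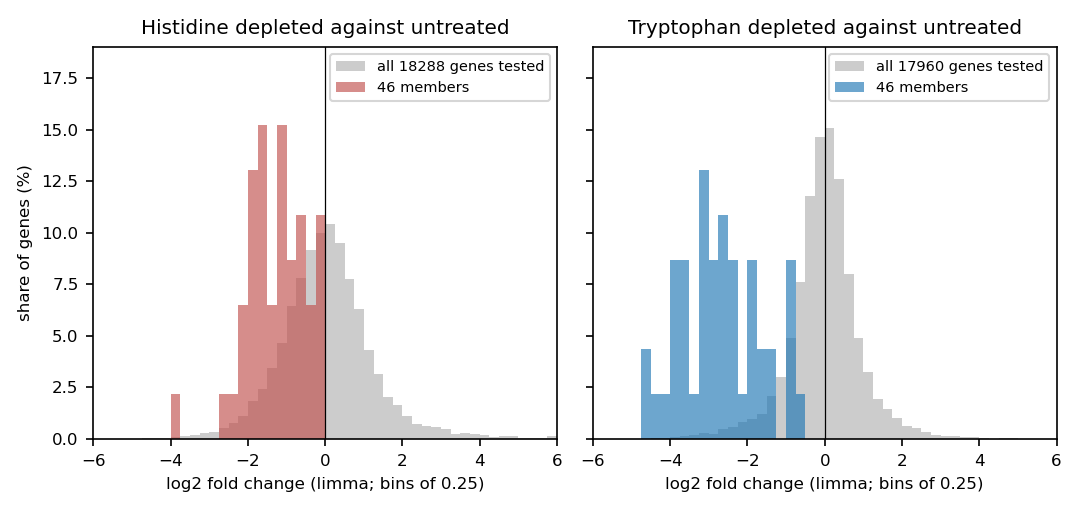
Share of genes (%) per log2 fold change bin of 0.25, for all genes tested (grey; changes beyond 6 are in the outermost bins) and for the 46 members (coloured), after histidine depletion (left) and tryptophan depletion (right). The members lie left of 0 in both panels, with medians of -1.22 and -2.76 against 0.010 and 0.013 for all genes.

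The licensing factors were split. ORC1 (chromosome 1, 52372829 to 52404423, GRCh38), the largest subunit of the origin recognition complex, had 1950 and 1874 scaled counts in untreated, 260 and 316 in histidine-depleted and 139 and 177 in tryptophan-depleted libraries. This was the second largest fall of any member after histidine depletion, with a log2 change of -2.72 and a standard error, written after ± from here on, of 0.0825 (adjusted p = 2.84e-19, limma), and ORC1 fell by 3.61 after tryptophan depletion (adjusted p = 1.62e-80, limma). CDT1, which brings MCM2-7 to ORC, went from 3128 and 3451 to 828 and 904 without histidine and to 234 and 225 without tryptophan. Its groups did not overlap, and it fell by 1.92 and 3.84. CDC6, the ATPase that works with CDT1, stood at 4102 and 4219 in untreated, 3560 and 3514 in histidine-depleted and 2305 and 2381 in tryptophan-depleted cells. It kept 85.0% and 56.3% of its untreated level. GMNN, or geminin, which binds CDT1 and blocks relicensing, had 1670 and 1635, then 988 and 998, then 655 and 699 scaled counts, and kept 60.1% and 41.0%. CDT1, its target, kept 26.3% and 6.98%.

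ORC6 (chromosome 16, 46689643 to 46698394), the smallest subunit of ORC, was the member that changed least without histidine. Its scaled counts were 1580 and 1566 in untreated, 1522 and 1487 in histidine-depleted and 363 and 343 in tryptophan-depleted libraries. The histidine-depleted libraries lay just under the untreated ones, at 95.6% of their level, while the tryptophan-depleted ones lay far under both. The log2 fold change was -0.06 ± 0.0585 after histidine and -2.16 ± 0.0707 after tryptophan depletion (limma adjusted p = 0.394 and 1.69e-61), and the direct difference was 2.09 ± 0.0588 (adjusted p = 2.28e-15, limma). The other ORC subunits, ORC2 to ORC5, are not members, and their log2 fold changes lay between -0.23 and 0.20 without histidine and between -0.21 and 0.15 without tryptophan. ORC2 was at 3432 and 3487, then 3495 and 3475, then 3005 and 3014 (0.02 after histidine, adjusted p = 0.738, and -0.21 after tryptophan depletion, adjusted p = 7.97e-05, limma). Per kilobase of transcript, the level of the most abundant ORC subunit was 2.97 times that of the least abundant in untreated cells, 10.1 times after histidine and 14.3 times after tryptophan depletion. ORC1 was the lowest subunit in both depletions.

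The subunits of the MCM2-7 helicase and MCM10, which helps to activate it, all fell in both depletions, with log2 fold changes from -1.76 to -0.69 without histidine and from -3.92 to -2.33 without tryptophan. MCM2 (chromosome 3, 127598410 to 127622436), whose promoter is printed above with that of MCM6, had 7505 and 7536 scaled counts in untreated, 2039 and 2391 in histidine-depleted and 806 and 808 in tryptophan-depleted libraries, so that 29.5% and 10.7% were left (limma adjusted p = 2.42e-18 and 2.01e-100). For MCM2, 23.6% of the exonic bases overlap a gene on the opposite strand, and whether the authors counted by strand is not given in the sources used here. MCM5 (chromosome 22, 35400134 to 35425431) went from 4391 and 4225 to 1346 and 1483 and to 313 and 292. MCM4 went from 16290 and 15531 to 6747 and 7061 and to 1765 and 1612, a direct difference of 2.03 ± 0.0474. MCM10 had 1609 and 1518, then 701 and 717, then 102 and 103 scaled counts. For these genes every library of a group lay apart from every library of the other groups.

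The helicase subunits did not move in step. MCM2, MCM3 and MCM6 were left at 29.5%, 31.2% and 32.1% without histidine, close to MCM5 at 32.8%, while MCM4 was left at 43.4% and MCM7 at 61.7%. Without tryptophan the order was another, with MCM5 lowest at 7.02%, MCM4 at 10.6% and MCM2 at 10.7%, and MCM7, MCM3 and MCM6 at 17.7%, 18.3% and 20%. The difference between the depletions was accordingly small for MCM6 (0.68 ± 0.0550) and MCM3 (0.76 ± 0.0493) and wider for MCM5 (2.22 ± 0.0607). Per kilobase, the highest subunit (MCM7) stood at 6.23 times the lowest (MCM5) in untreated cells, at 11.7 times after histidine depletion and at 15.7 times after tryptophan depletion.

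CDC45 and the GINS subunits, which turn the loaded helicase into the active CMG form, fell most of all role groups after tryptophan depletion, with a median of -3.52 over the 5 genes. After histidine depletion their median was -1.06. CDC45 (chromosome 22, 19479457 to 19520612) had 3340 and 3322 scaled counts in untreated, 1731 and 1874 in histidine-depleted and 142 and 140 in tryptophan-depleted libraries. The histidine-depleted cells kept 54.1% of the untreated level and the tryptophan-depleted cells 4.23%, the lowest share of any member in that medium. The direct difference was 3.67 ± 0.0602, or 12.8-fold in mean levels (limma adjusted p = 6.36e-18).

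Within GINS, a complex of 4 subunits, GINS1 went from 2739 and 2867 to 681 and 739 and to 259 and 232 scaled counts. GINS2 went from 1118 and 1082 to 272 and 319 and to 77.9 and 95.2. These subunits lost the most without histidine (-1.97 and -1.89), while GINS3 fell by 0.56 and GINS4 by 1.06. Without tryptophan all 4 had changes between -3.67 and -2.93, so that GINS3 differed most between the depletions, by 2.61 ± 0.0946. GINS4 is the member with the widest gap between the tryptophan-depleted replicates, at 54.4 and 76.9, and 23.4% of its exonic bases overlap genes on the opposite strand.

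Primase and the replicative polymerases had 8 members, all lower in both depletions, with medians of -1.21 and -1.96. POLE2 (chromosome 14, 49643555 to 49688422), the second subunit of leading-strand polymerase epsilon, had 560 and 511, then 101 and 97.7, then 44.8 and 44 scaled counts. It fell by 2.41 and 3.57 (limma adjusted p = 1.45e-15 and 2.3e-53). PRIM1, the catalytic primase subunit that starts each new strand with an RNA primer, went from 939 and 1005 to 292 and 310 and to 93.9 and 107. Of its exonic bases, 15.1% are shared with genes on the same strand, NACA among them, so some of its reads may belong to those genes. POLD1, the catalytic subunit of lagging-strand polymerase delta, was at 3666 and 3884, then 2223 and 2326, then 638 and 695, which left 60.2% and 17.7%.

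The catalytic and accessory subunits of an enzyme often differed in size of change. POLE, the catalytic subunit of polymerase epsilon, fell by 1.53 and 1.95 and differed between the depletions by 0.41 ± 0.0427, less than POLE2 (1.15 ± 0.134). POLA1 and POLA2 of polymerase alpha fell by 0.99 and 1.43 without histidine and by 1.79 and 1.97 without tryptophan. PRIM2, the large primase subunit, kept 72.4% and 39.3%, well above the 31.0% and 10.3% of its partner PRIM1. POLD3 (chromosome 11, 74493851 to 74669117), an accessory subunit of polymerase delta, was the member with no called difference between the depletions. Its scaled counts were 2988 and 2840 in untreated, 1544 and 1590 in histidine-depleted and 1661 and 1520 in tryptophan-depleted libraries, so that the depleted groups overlapped. POLD3 fell by 0.89 and 0.88, and the direct difference was -0.02 ± 0.0529 (limma adjusted p = 0.739). Per kilobase, the range between the highest and the lowest subunit of polymerase epsilon went from 8.62 times in untreated cells to 59.6 and 68.6 times, with POLE3, which is not a member, on top and POLE2 at the bottom. The range within polymerase delta went the other way, from 19.0 to 8.78 and 13.6 times, and that within GINS from 6.42 to 3.56 and 4.26 times.

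**Figure D3:**
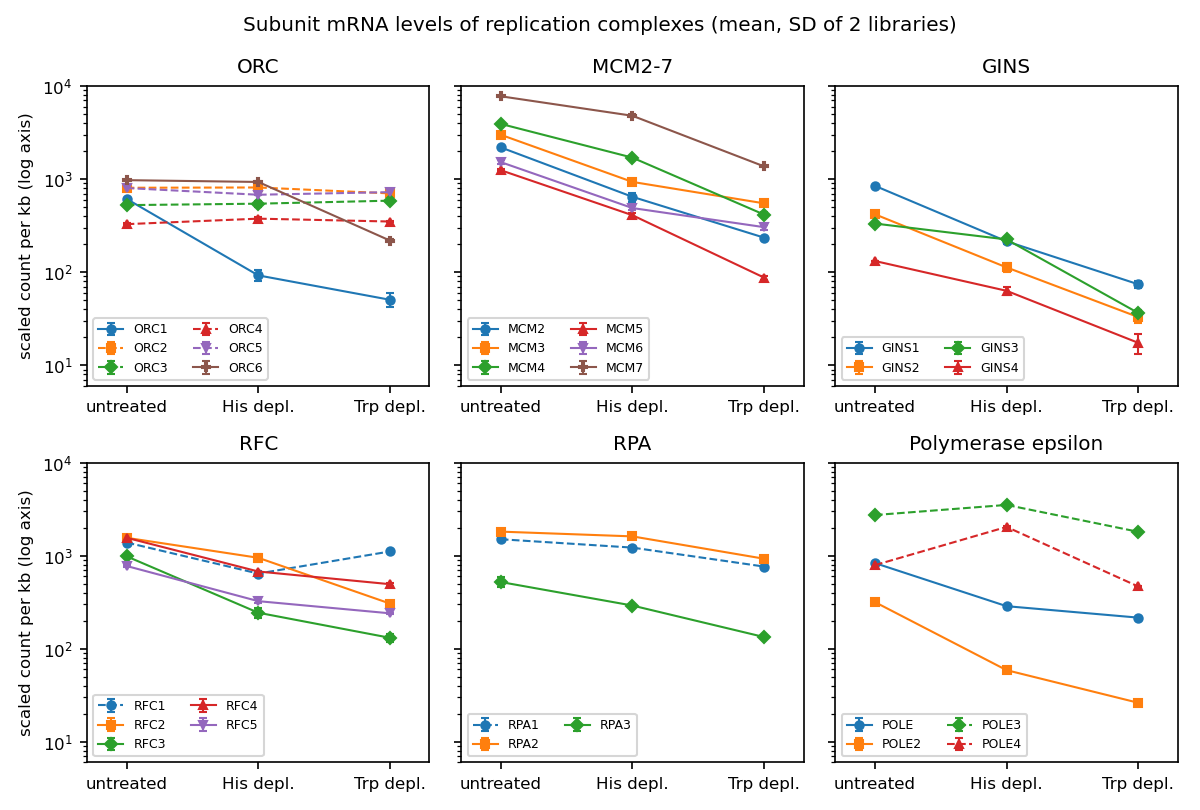
Level of each subunit of 6 complexes as scaled counts per kilobase of transcript (log axis) in untreated, histidine-depleted (His depl.) and tryptophan-depleted (Trp depl.) cells. Points are means of 2 libraries with SD bars, solid lines are members and dashed lines other subunits of the complex. ORC1 drops apart from ORC2 to ORC5 in both depletions, ORC6 after tryptophan depletion, and POLE2 widens its distance from POLE3.

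PCNA (chromosome 20, 5114953 to 5126626), the sliding clamp and the common marker of proliferating cells, had 7557 and 7411 scaled counts in untreated, 3594 and 3824 in histidine-depleted and 1187 and 1254 in tryptophan-depleted libraries. The groups were far apart. About as much as the median of the set was left, 49.6% and 16.3%, and the direct difference was 1.60 ± 0.0462 (limma adjusted p = 3.08e-15). The annotation lists 3 pseudogenes of PCNA, and how reads that map to several places were treated is not given in the sources used here.

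The clamp loaders around it changed unevenly. RFC3, a subunit of the replication factor C loader, went from 2231 and 2299 to 515 and 607 and to 324 and 279, while RFC2 kept 61.0% without histidine and 19.7% without tryptophan. RFC4 and RFC5 kept 43.4% and 41.9% without histidine and 31.7% and 31.0% without tryptophan, with direct differences of 0.45 and 0.43. DSCC1, which belongs to the alternative loader that acts in sister chromatid cohesion, was among the most reduced members of both depletions, at 3609 and 3568, then 761 and 937, then 194 and 256 scaled counts. DSCC1 fell by 2.08 and 4.01 (limma adjusted p = 2.83e-18 and 1.64e-94). The large loader subunit RFC1, which is not a member, was at 6626 and 6835, then 3040 and 3206, then 5459 and 5326. RFC1 thus fell more without histidine (-1.10) than without tryptophan (-0.33), with a direct difference of -0.79 ± 0.0421 (adjusted p = 1.17e-11, limma), opposite in sign to that of RFC2 to RFC5.

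Of the single-strand binding protein RPA, RPA2 changed least after ORC6 without histidine. Its scaled counts were 2797 and 2933, then 2523 and 2571, then 1505 and 1427. The fall of 0.16 ± 0.0535 without histidine passed the test (limma adjusted p = 0.00928) but did not in 3 of 14 alternative settings, among them limma without the trend (adjusted p = 0.0814). RPA3, the smallest subunit, went from 962 and 1139 to 595 and 579 and to 273 and 266. Its untreated libraries differed more than those of any other member, yet lay above all the depleted ones. RPA1, the large subunit and not a member, was at 7085 and 7437, then 5762 and 6048, then 3733 and 3655, so that the RPA subunits kept 81.3%, 88.9% and 55.9% without histidine and 50.9%, 51.2% and 25.6% without tryptophan, in the order RPA1, RPA2, RPA3.

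The nucleases and the ligase of Okazaki fragment processing and repair fell together, with log2 fold changes from -2.14 to -1.71 without histidine, the lowest median of the role groups in that medium (-1.91), and from -4.50 to -2.34 without tryptophan. EXO1 (chromosome 1, 241847967 to 241895148), a 5′ to 3′ exonuclease of mismatch repair and end resection, had 1379 and 1478, then 304 and 339, then 66.2 and 58.6 scaled counts, which left 22.5% and 4.37%. LIG1, the ligase that seals Okazaki fragments, went from 4581 and 4422 to 1143 and 1232 and to 492 and 495. FEN1, the flap endonuclease that trims them, went from 5405 and 5516 to 1597 and 1715 and to 1084 and 1090. FEN1 was left at 30.3% and 19.9%, and its direct difference of 0.61 ± 0.0483 was the smallest of the 3 genes.

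The 3 fork protection factors changed by unequal amounts, most of all without tryptophan. CLSPN (chromosome 1, 35720218 to 35769978), or claspin, the adaptor that carries the checkpoint signal from ATR to CHK1 and moves with the fork, had 1527 and 1449 scaled counts in untreated, 1101 and 1112 in histidine-depleted and 65.1 and 70.5 in tryptophan-depleted libraries. About 74.4% was left without histidine and 4.56% without tryptophan. The log2 fold changes were -0.42 ± 0.0617 and -4.44 ± 0.0995, and the direct difference of 4.01 ± 0.0776, or 16.3-fold in mean levels, was the largest of any member (limma adjusted p = 3.09e-17). WDHD1, also called AND-1, which links the helicase to polymerase alpha, went from 1433 and 1404 to 646 and 713 and to 227 and 201.4. TIPIN, the partner of TIMELESS, was at 801 and 880, then 676 and 698, then 494 and 494, and kept 81.7% and 58.7%. A ribosomal protein pseudogene on the same strand overlaps 21.1% of the exonic bases of TIPIN. The fold change of TIPIN without histidine, -0.28, was -0.08 after quantile normalization and then did not pass the test (limma adjusted p = 0.269). TIMELESS itself, not a member and picked out after its values were seen, was at 5872 and 5828, then 1364 and 1492, then 1310 and 1397, a fall of 2.03 and 2.12 with no called difference between the depletions (0.08, adjusted p = 0.193, limma) except when histidine-depleted replicate 1 was left out (0.14, adjusted p = 0.04).

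CDCA7 (chromosome 2, 173354820 to 173368997) was the one member that went the other way in the direct comparison. It is the partner that brings the remodeller HELLS to nucleosomes, and mutations in either gene cause the ICF syndrome of DNA hypomethylation. CDCA7 had 7413 and 7123 scaled counts in untreated, 458 and 590 in histidine-depleted and 827 and 760 in tryptophan-depleted libraries. The histidine-depleted libraries were the lowest, at 7.21% of untreated, and did not overlap the tryptophan-depleted ones, at 10.9%. The fold changes were -3.79 ± 0.0767 and -3.20 ± 0.0518, and the direct difference was -0.61 ± 0.0840 (limma adjusted p = 3.92e-06). HELLS (chromosome 10, 94545329 to 94613905) behaved differently, at 2993 and 3054, then 1024 and 1104, then 209 and 200. HELLS was left at 35.2% and 6.76%, and its direct difference was 2.37 ± 0.0628.

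UHRF1, which recognises hemimethylated DNA behind the fork and recruits DNMT1, resembled ORC6 and CLSPN in its small change without histidine. Its scaled counts were 3639 and 3601, then 2998 and 3104, then 503 and 545, so that 84.3% and 14.5% were left. The direct difference was 2.54 ± 0.0515 (limma adjusted p = 5.12e-17). CHAF1B, a subunit of the chromatin assembly factor CAF-1, which deposits new histones, went from 1059 and 1075 to 267 and 296 and to 121 and 139. CHAF1A, its partner, was left at 31.5% and 16.4%, and ASF1B, a histone chaperone of proliferating cells, at 40.3% and 14.4%. SLBP, which binds the stem-loop at the end of replication-dependent histone mRNAs, had the smallest fall of all members without tryptophan. It was at 3728 and 3643, then 3069 and 3206, then 2265 and 2291, a change of -0.22 ± 0.0517 and -0.70 ± 0.0498 (limma adjusted p = 0.000413 and 1.64e-27).

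**Figure D4:**
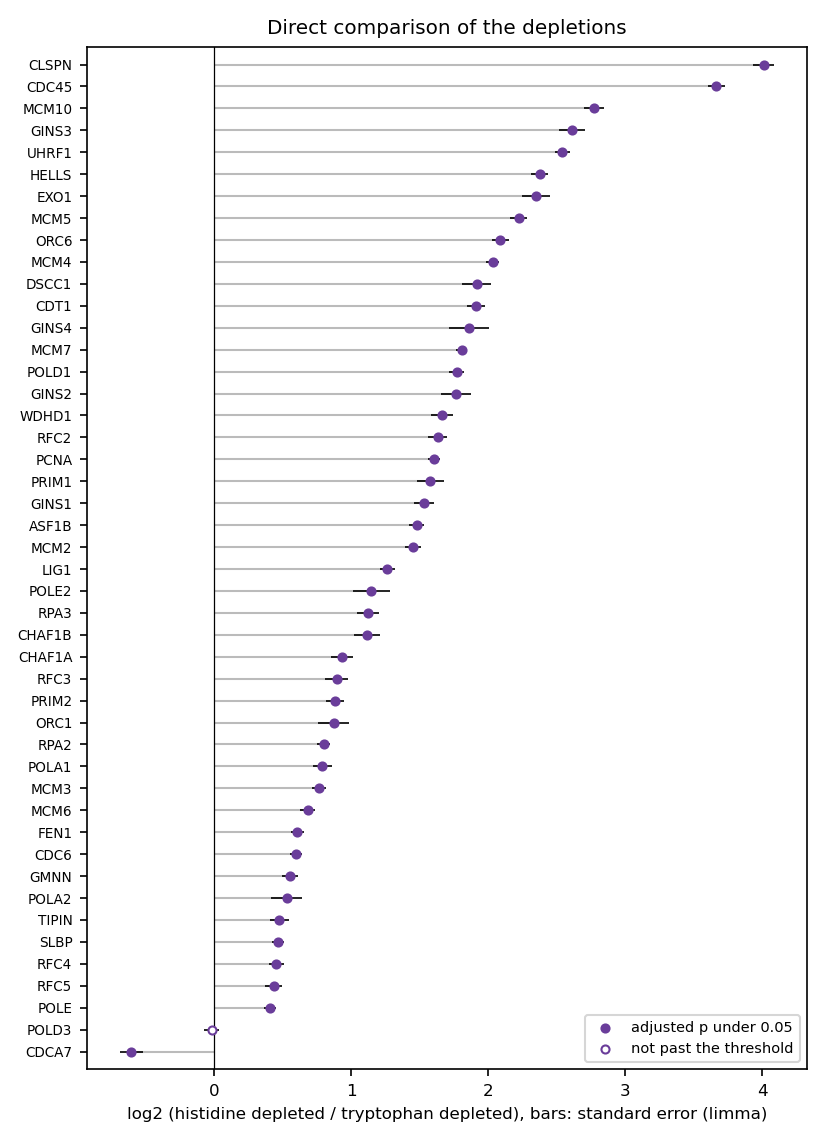
Direct difference of each member between the depletions, as log2 of the histidine-depleted over the tryptophan-depleted level with its standard error from limma on all 6 libraries. Filled points pass the adjusted p threshold of 0.05. The values run from 4.01 for CLSPN and 3.67 for CDC45 down to -0.02 for POLD3 (open point) and -0.61 for CDCA7.

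Seen across roles, 8 members fell by less than 0.5 or did not pass the test without histidine, namely CDC6, ORC6, PRIM2, RPA2, UHRF1, CLSPN, SLBP and TIPIN. These did not behave alike without tryptophan. CLSPN, UHRF1 and ORC6 then fell by 4.44, 2.80 and 2.16, PRIM2 by 1.35, and RPA2, CDC6, TIPIN and SLBP by less than 1.

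A wider list of 38 replication genes outside the set was less uniform. Without histidine 30 were lower and 5 higher (38.2% and 39.1% of all genes tested), with a median of -0.92. Without tryptophan 32 were lower and 4 higher (34.8% and 36.1% of all genes), with a median of -1.11. In the direct comparison 24 were higher and 6 lower after histidine depletion (38.7% and 38.0% of all genes), with a median of 0.43. The most changed genes of the list all fell in both depletions. CDC7, the kinase that phosphorylates MCM subunits, went from 1433 and 1410 to 357 and 373 and to 138 and 158 scaled counts. TICRR, or treslin, fell by 1.51 and 2.80, RECQL4 by 1.57 and 2.72, and TOP2A, the topoisomerase that untangles sister chromatids, by 1.66 and 3.25. DBF4, the activating partner of CDC7, was picked out after its values were seen, and it fell by 0.97 and 1.06 with no called difference between the depletions (0.08, adjusted p = 0.246, limma). RNASEH2A, also among the 5 largest changes of this list, had 23.0 and 20.9, then 11.7 and 10.2, then 3.20 and 2.75 scaled counts, and 53.3% of its exonic bases are shared with THSD8 on the same strand, so its level is uncertain. The call of RNASEH2A without histidine (-0.93, limma adjusted p = 0.0231) was lost in DESeq2 (adjusted p = 0.182) and in limma with no filter on low counts (adjusted p = 0.0511). It was also lost in limma without untreated replicate 1 (a change of -0.87) or histidine-depleted replicate 2 (-0.83).

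In this list POLD4, POLE4, POLE3, TOP1 and ORC4 rose without histidine. The call of ORC4 was lost without histidine-depleted replicate 2 (limma adjusted p = 0.0534). The 4 genes higher without tryptophan were POLD4, MCM9, TOP1 and ORC3, and the count fell to 2, POLD4 and MCM9, when tryptophan-depleted replicate 1 was left out and in limma without the trend. TOP1 (0.13, adjusted p = 0.0118, limma) and ORC3 (0.15, adjusted p = 0.0161, limma) were the calls lost, with changes of 0.15 and 0.11 in limma without that replicate. The call of TOP1 was also lost without tryptophan-depleted replicate 2 (0.10) and under quantile normalization (0.03, limma adjusted p = 0.29). That of ORC3 was also lost in DESeq2 (adjusted p = 0.112). POLD4, POLE4 and ASF1A are described after their values were seen. POLD4, the smallest subunit of polymerase delta, was at 383 and 451, then 852 and 897, then 1002 and 1055 (log2 fold changes of 1.08 and 1.30), with 21.3% of its exonic bases shared with a gene on the same strand. POLE4, a histone-fold subunit of polymerase epsilon, was at 824 and 909, then 2274 and 2186, then 513 and 508, so that it rose by 1.37 without histidine and fell by 0.77 without tryptophan. ASF1A, the paralogue of ASF1B, fell by 2.02 without histidine, and without tryptophan its change was -0.10 (limma adjusted p = 0.162). POLD2, the second subunit of polymerase delta, kept 77.9% and 56.4%.

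Codons of both missing amino acids were counted in the canonical coding sequence of each member. Histidine made up a median of 2.06% of the members' codons, against 2.43% over 19892 protein-coding genes, and tryptophan 0.580%, against 1.13%. Above the all-gene median were 14 of the 46 members for histidine, with CDC45 highest at 3.53%, and 11 for tryptophan. MCM3 and RPA3 have no tryptophan codon. Spearman's rho over the 46 members between the codon share and the log2 fold change was -0.12 for histidine and its depletion and -0.20 for tryptophan and its depletion. These are descriptions across genes that share the same libraries.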

How the data were processed

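Polyadenylated mRNA of 6 HT29 samples was sequenced with a stranded, paired-end protocol. Per the labels and the methods of the study, the authors aligned reads with STAR 2.7.10a to GRCh38 (hg38), counted them per gene over exons of gencode 38 with HTSeq 2.0.5, and divided the counts by DESeq2 size factors. The deposited values are these normalized counts (unit: signal), with 1 table for each depletion and the untreated libraries in both. The use of molecular identifiers and of strand, and the treatment of reads mapping to several places, are not given in the sources used here. The paper limits the counting to protein-coding genes, whereas 60676 genes are listed. Which overlapping neighbours competed for reads is therefore uncertain.

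Within a library, 100% of the values came out as whole multiples of the value of 1 read (tolerance 0.05 reads), so reads were recovered, and the untreated reads were identical in both tables. Each depletion was tested within its table in R 4.3.3 by limma 3.58.1, two-sided and with a trend, on log2(normalized count + 1), over genes with a mean of at least 10 and with Benjamini-Hochberg adjustment at 0.05. On this scale the change of genes with low counts is understated. The direct comparison used the recovered reads of all 6 libraries with joint median-of-ratios size factors. As alternatives, pseudocounts of 0.5 and 8, a filter at 50 or none, quantile normalization, limma with the trend off, DESeq2 1.42.0 and edgeR 4.0.16 (TMM) on recovered reads, fits on all 6 or on the 4 depleted libraries, the replicate number as a block, a log2 limit of 1 and the loss of each library in turn were tried.

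Members and related lists were chosen with earlier results of these data known. Values in every library are given for up to 3 members per role with the largest change in either depletion, for members that go against the rest, for 7 members fixed by name, and for the 5 most changed related genes with RPA1, ORC2, RFC1 and POLD2. POLD3, TIMELESS, POLD4, POLE3, POLE4, ASF1A, DBF4, TOP1, MCM9 and ORC3 to ORC5 were added after their values were seen. Names, coordinates, overlaps and coding sequences came from gencode 44, and promoter windows from RefSeq GRCh38.p14. Python 3.11.15 was used with numpy 2.4.6, pandas 2.3.3 and matplotlib 3.10.9. The code was tested on simulated data. Protein sequences and mass spectra were not analysed here.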

Additional observations from a re-analysis of the deposited data

How the results depend on the processing

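Over the 14, 14 and 16 alternative settings, 640 of 644 member values after histidine depletion, 644 of 644 after tryptophan depletion and 734 of 736 in the direct comparison kept their direction and their side of the threshold. The exceptions were RPA2 after histidine depletion (adjusted p = 0.0814 in limma without the trend, and 0.097 and 0.0567 in limma without either histidine-depleted replicate), TIPIN after quantile normalization (-0.08, limma adjusted p = 0.269) and POLD3. The direct difference of POLD3 changed sign when a library was left out, from -0.084 without tryptophan-depleted replicate 2 to 0.044 without tryptophan-depleted replicate 1 (0.0011 without histidine-depleted replicate 1), and it was not called in any of these. With a required log2 fold change of at least 1, the members lower after histidine depletion numbered 29 and, in the direct comparison, 27 were higher and 0 lower. Quantile normalization moved the median after tryptophan depletion to -2.71. With each library left out in turn, that median ranged from -2.77 to -2.70, the median of the direct comparison from 1.27 to 1.43, and the count lower after histidine depletion from 44 to 45. Among the related genes, ORC2 after histidine depletion changed sign under quantile normalization (from 0.02 to -0.09, limma adjusted p = 0.0471). SSRP1 in the direct comparison went from 0.099 to -0.061 there, called in both directions (limma adjusted p = 0.0301 and 0.0409). HAT1 after histidine depletion, ASF1A after tryptophan depletion, and MMS22L and TONSL in the direct comparison also changed sign there, without a call. ORC3 after histidine depletion changed sign without histidine-depleted replicate 2, as did TONSL in the direct comparison without histidine-depleted replicate 1. With a log2 fold change of at least 1, 17 of the related genes were lower and 2 higher after histidine depletion, 20 lower and 1 higher after tryptophan depletion, and 10 higher and 1 lower in the direct comparison.

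Over 12480 genes the differences between replicates 2 and 1 correlated at 0.117, -0.053 and -0.104 between the groups. Weak correlations of this kind cannot show whether the replicate numbers paired the samples. With the replicate block, 45 members were lower after histidine depletion, 46 after tryptophan depletion, and 44 were higher and 1 lower in the direct comparison, as without it. With 2 libraries per group and an unstated source of the replicates, the errors may be too small. POLE2 rests on the fewest reads in both depletions, 42 at the least.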
